A study of Mus musculus with 30 samples.

Results

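The genes that carry a cell into and through mitosis were followed by array in mouse embryonic stem cells (ESCs) from which 1 of 4 kinases and phosphatases could be withdrawn. The list held 41 genes, among them cyclins and mitotic kinases, the transcription factors that drive mitotic genes, centromere and kinetochore proteins, kinesin motors, condensin and topoisomerase, and the proteins of anaphase and cytokinesis. Members were found by gene symbol among the 18097 symbols of the deposited bead array signals, with Cdk1 under its older symbol Cdc2a, and each gene was read from its brightest probe. A row was present for 35 of the 41. Mki67, Nuf2, Cenpf, Ncapg, Kif20a and Smc4 had no row under their symbol and were not analysed here. Of the 35, 27 were detected on all 30 arrays, and Ccna2 (26 arrays), Ube2c (28), Hmmr (4) and Smc2 (4) on some. Ccnb2, Nek2, Cenpe and Ect2 were detected on no array, so 31 members were tested.

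Mitotic genes are transcribed late in the cell cycle. B-Myb, encoded by Mybl2, binds their promoters first and is followed by Foxm1. Cdc2a encodes the kinase Cdk1, which with cyclin B (Ccnb1) starts mitosis; Plk1 is a second entry kinase and Plk4 licenses centriole duplication. Cenpa marks the centromere, and on it the kinetochore proteins, such as the Ndc80 complex with Spc24 and Spc25, capture spindle microtubules that kinesins move or take apart. Anaphase starts when Ube2c and the anaphase-promoting complex mark securin (Pttg1) for destruction, which frees separase (Espl1) to cut cohesin. Embryonic stem cells divide fast, with short gap phases.

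All cells were Ainv15 ESCs, a mouse line that expresses the reverse tetracycline transactivator (rtTA). Each rescue clone (Bub1b_R, Chek1_R, Ppm1g_R or Ppp2r1b_R) carried a short hairpin RNA (shRNA) against the mRNA of the named gene and a copy of that gene that is transcribed only with doxycycline (Dox), so that taking Dox away is meant to deplete the product. Bub1b is a spindle checkpoint kinase, Chek1 the DNA damage checkpoint kinase Chk1, Ppm1g a metal-dependent phosphatase and Ppp2r1b a scaffold subunit of the phosphatase PP2A. The fifth clone, Ctrl_R, was the control. Every clone was measured with Dox (1 μg/ml) and after 5 days without it, on 3 arrays each. Cells were sorted for the GFP of the vector, kept on mouse embryonic fibroblasts and, per the methods, taken off this feeder layer before the arrays. The labels give 1 clone name per gene. The methods speak of 3 independent clones made for each, and neither source ties the 3 arrays of a condition to separate clones or cultures, so that p-values measure the spread between these arrays, which may be technical. The Ctrl_R arrays have sample records of an earlier deposit than the others, so that in every comparison with Ctrl_R the clone and the deposit cannot be told apart. The 21-base target sequence of each hairpin, which defines its clone, was as follows.
Bub1b_R hairpin: gcacacttagacacatcagca
Chek1_R hairpin: cccatgtagtagtatcacttt
Ppm1g_R hairpin: gccttgtactgtgccaaatat
Ppp2r1b_R hairpin: gctccgtctcaacagtattaa

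The targeted genes checked the labels in part. Ppm1g fell on Dox withdrawal in Ppm1g_R by 1.25 on the log2 scale (SE 0.103, adjusted p = 4.5e-09). Bub1b in Bub1b_R changed by -0.14 (adjusted p = 0.217) and differed from Ctrl_R by -0.67 without Dox and by -0.70 with Dox. Ppp2r1b in Ppp2r1b_R changed by 0.20 (adjusted p = 0.365). Chek1 went against its label: in the arrays labelled Chek1_R it was detected on 0 of 3 arrays with Dox and on 3 of 3 without, which put it at least 1.35-fold above its level with Dox (adjusted p = 0.00115). Without Dox it still differed from Ctrl_R by -1.07 (adjusted p = 3.06e-06). Thus, by these probes, 1 of the 4 target genes fell on withdrawal in its own clone. The name Chek1_R therefore stands for the arrays labelled so. Per the paper, the rescue copies of Bub1b and Chek1 lack the sequence their hairpins target, and those of Ppm1g and Ppp2r1b hold silent changes in it. The paper also measured the targeted genes with Dox by quantitative PCR. Where these probes lie relative to the rescue copies is not given in the sources used here, and whether each probe reads its rescue copy was not tested. All 7 ESC markers with a row were detected on every array (Esrrb, Nanog, Pou5f1, Sox2, Tdgf1, Utf1 and Zfp42). Of 11 fibroblast markers with a row, Col1a1, Col6a1, Thy1, Twist1 and Vim were detected on all 30 arrays, Dcn on 12, Col3a1 on 8, and Col1a2, Lum, Postn and S100a4 on none. Signal floors split the arrays by clone. The dimmest detected probe read 12.9 to 20.9 on the 12 Bub1b_R and Ctrl_R arrays, but 27.8 to 58.1 on the other 18. Between 11733 and 13685 probes were detected per array.

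Promoter sequence of the members is shown because many mitotic genes share the cell cycle genes homology region (CHR), a motif with the letters TTTGAA that binds complexes holding B-Myb. RefSeq windows of 300 bases (250 before to 50 after a gene's start, GRCm38.p6) matched 32 of the 35 members, with 36 windows in all. The CHR letters, read on both strands, were in 24 of these windows (66.7%), against 17.9% of all 32851 windows. CCAAT, the letters bound by NF-Y, was in 75.0% of the members' windows and in 37.4% of all. The E2F letters TTCCCGC were in 8.33% and 4.6%, and the members holding them were Plk4, Cenph and Cenpk. The 4 CHR examples printed here lie near the starts of an entry kinase, a ubiquitin enzyme, separase and a kinesin, and the 3 E2F examples are from the members just named. Capitals mark the motif, read along the gene's strand.
Cdc2a CHR, chr10:69352910-69352939, minus strand: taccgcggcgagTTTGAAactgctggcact
Ube2c CHR, chr2:164769888-164769917, plus strand: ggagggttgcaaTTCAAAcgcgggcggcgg
Espl1 CHR, chr15:102296254-102296283, plus strand: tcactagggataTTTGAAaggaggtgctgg
Kif15 CHR, chr9:122951050-122951079, plus strand: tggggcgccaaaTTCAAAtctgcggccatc
Plk4 E2F, chr3:40799820-40799849, plus strand: aaagactttctGCGGGAAgccaaagcccta
Cenph E2F, chr13:100775850-100775879, minus strand: acttccggaaaccaatttcgtgGCGGGAAg
Cenpk E2F, chr13:104229359-104229388, plus strand: tgcgtgttacgTTCCCGCgtctccacctgc
These matches describe the letters in the windows only. No window was listed for Ccna2, Foxm1 and Spc24.

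The first question was whether Dox withdrawal moved mitotic transcripts within a rescue clone. Few members passed the test in any clone. Mybl2 fell in all 4 rescue clones and changed by 0.01 in Ctrl_R, and Espl1 fell in 3 of them. A member is said to have passed the test at an adjusted p under 0.05 over all 15151 tested probes, and to be called changed if it also moved at least 1.5-fold. On Dox withdrawal in Bub1b_R, 1 of the 31 members was called changed (Mybl2, lower), where 5.6% of all probes were called and 2.67% were called lower. In Chek1_R no member was called (9.27% of all probes). In Ppm1g_R none was called (4.37%), nor in Ppp2r1b_R (4.82%), nor in Ctrl_R (1.1%). At an adjusted p under 0.05 without the fold limit, 3 members passed in Bub1b_R (24.4% of all probes did), 5 in Chek1_R (30.9%), 4 in Ppm1g_R (23.4%), 5 in Ppp2r1b_R (25.3%) and 1 in Ctrl_R (7.55%). By an ordinary t-test in place of the moderated fit, 3, 5, 0, 2 and 0 members passed an adjusted p under 0.05 in the same order. Of the 15151 probes 2467, 3116, 1299, 545 and 59 did. The falls of Mybl2 and Espl1 in Ppm1g_R thus did not pass that t-test. At an unadjusted p under 0.05 the counts were 6, 8, 6, 8 and 8, where 34.7%, 39.1%, 33.9%, 36% and 21.7% of all probes passed. The members' median change was -0.05, -0.05, -0.09, 0.00 and 0.10 in the same order. Over all probes it lay between -0.02 and 0.00 in the 5 clones.

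The 95% interval lay within 1.5-fold of no change for 28 of the 31 members in Bub1b_R (75% of all probes), 29 in Chek1_R (71.3%), 29 in Ppm1g_R (76.4%), 28 in Ppp2r1b_R (75.4%) and 29 in Ctrl_R (83.1%). In the mean of the 4 rescue clones it did for all 31 (92.9% of all probes). In that mean, 0 members were called (3.56% of all probes), 15 had an unadjusted p under 0.05 (52.2%), and 13 passed the adjusted p alone (46.4%), 3 higher (22%) and 10 lower (24.4%).

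**Figure D1:**
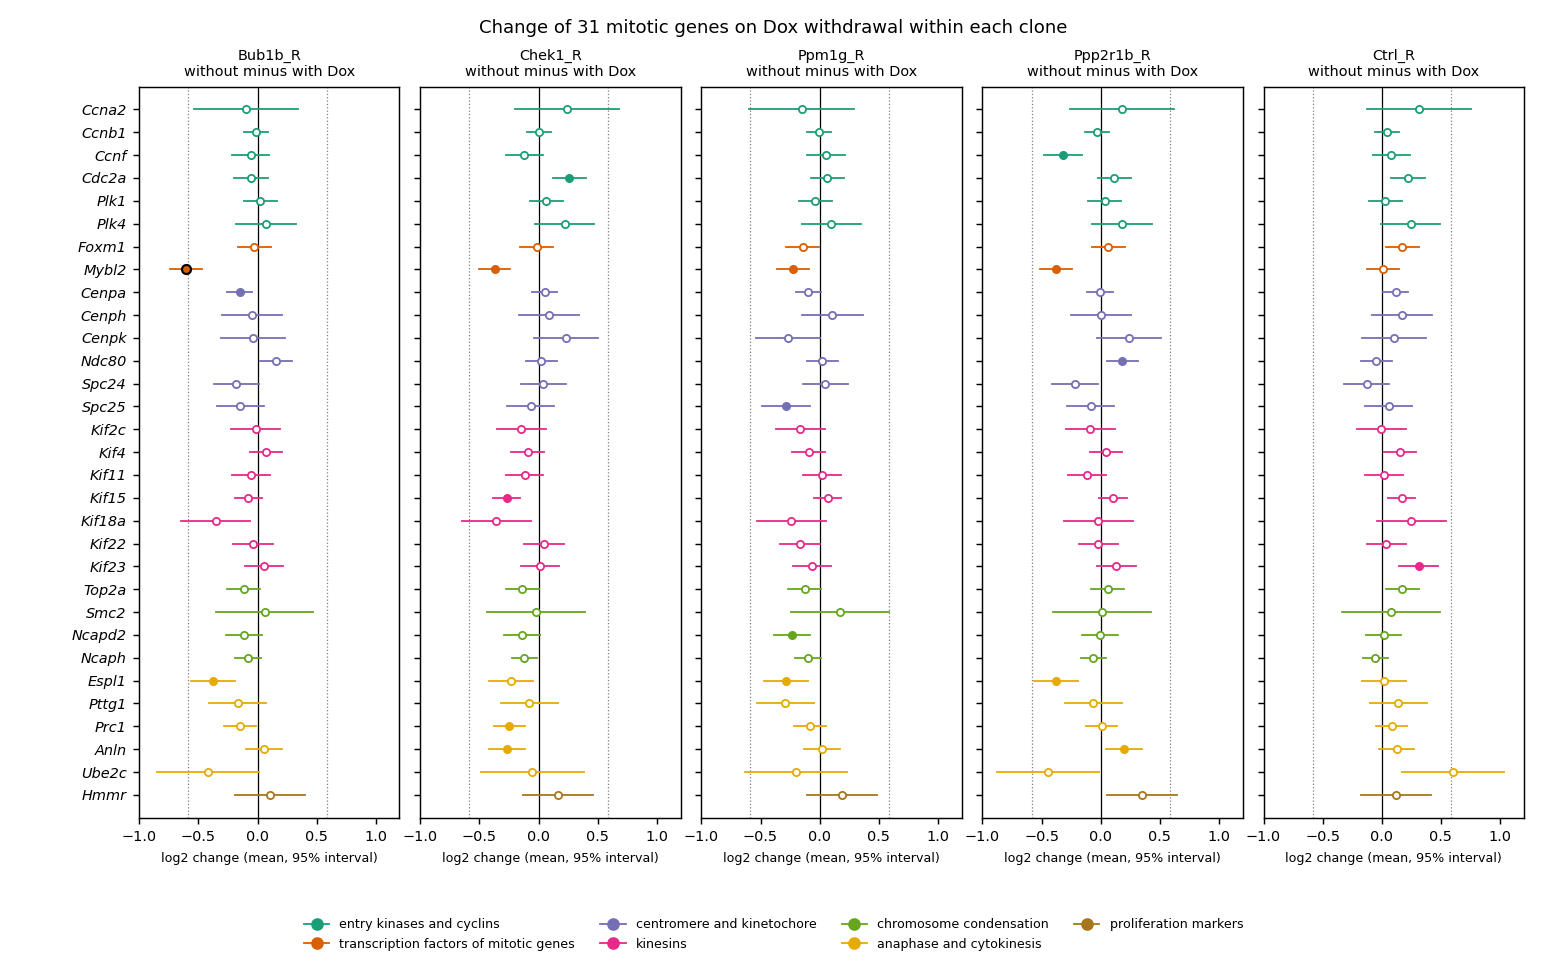
Change on Dox withdrawal (log2, without minus with Dox) of the 31 tested members in each of the 5 clones, with 95% intervals from the fit of all 30 arrays (3 arrays a condition). Filled points passed an adjusted p under 0.05, the black ring marks the 1 called member (Mybl2 in Bub1b_R, at -0.60), and dotted lines mark 1.5-fold. Nearly all points lie between the dotted lines.

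Among the transcription factors, Mybl2 stood in Bub1b_R at log2 levels of 12.49, 12.36 and 12.47 with Dox and 11.81, 11.87 and 11.83 without. The arrays did not overlap, and Mybl2 fell by 0.60 (SE 0.0647, adjusted p = 1.66e-07). In the arrays labelled Chek1_R its levels were 12.35, 12.40 and 12.29 with Dox and 12.01, 11.93 and 11.98 without, again apart, and it fell by 0.37 (adjusted p = 7.49e-05). In Ppm1g_R it stood at 12.23, 12.18 and 12.35 against 12.11, 12.01 and 11.95 and fell by 0.23 (adjusted p = 0.0122). In Ppp2r1b_R, levels of 11.94, 12.02 and 11.91 with Dox were above 11.57, 11.65 and 11.53 without, and the fall was 0.38 (adjusted p = 0.000137). In Ctrl_R the arrays overlapped, at 12.41, 12.61 and 12.66 with Dox and 12.55, 12.59 and 12.57 without (change 0.01, 95% interval -0.12 to 0.15). Both other probes of Mybl2 also fell at least 1.5-fold in Bub1b_R (-0.63 and -0.60). In Ctrl_R these other probes went apart, at 0.22 (adjusted p = 0.072) and -0.27 (adjusted p = 0.078). Without Bub1b_R +Dox replicate 1 the Mybl2 change in Bub1b_R was -0.58, below 1.5-fold, and with arrays scaled to 1 median it was -0.56. Foxm1 changed by -0.14 to 0.17 across the 5 clones and passed the test in none.

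Among the 6 tested entry kinases and cyclins, 1 passed the test in Chek1_R (30.9% of all probes) and 1 in Ppp2r1b_R (25.3%). None passed in Bub1b_R (24.4%), Ppm1g_R (23.4%) or Ctrl_R (7.55%). Cdc2a, the Cdk1 kinase, stood in the arrays labelled Chek1_R at 11.75, 11.79 and 11.78 with Dox and 12.04, 12.08 and 12.00 without. These groups were apart, and Cdc2a rose by 0.26 (adjusted p = 0.00492), beside 0.22 in Ctrl_R (adjusted p = 0.0516). Ccnf, the F-box cyclin of a ubiquitin ligase, stood in Ppp2r1b_R at 7.83, 7.76 and 7.72 with Dox and 7.57, 7.43 and 7.36 without, and fell by 0.32 (adjusted p = 0.00365). Cyclin B1 (Ccnb1) and Plk1 changed by -0.04 to 0.07 in the 5 clones and passed in none, and Plk4 changed by 0.07 to 0.24 and passed in none.

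Of the 6 tested centromere and kinetochore genes, 1 passed in Bub1b_R (24.4% of all probes), 1 in Ppm1g_R (23.4%) and 1 in Ppp2r1b_R (25.3%). Cenpa, the centromeric histone H3 variant, stood at 14.17, 14.21 and 14.15 in Bub1b_R with Dox and at 14.02, 13.95 and 14.10 without, and fell by 0.15 with the arrays apart (adjusted p = 0.0352). Spc25, a subunit of the Ndc80 complex, stood in Ppm1g_R at 10.99, 11.05 and 10.96 with Dox and 10.62, 10.83 and 10.69 without, and fell by 0.29 (adjusted p = 0.0338). Ndc80 itself rose in Ppp2r1b_R by 0.18, from 9.82, 9.88 and 9.86 to 10.07, 10.05 and 10.00 (adjusted p = 0.0377). Spc24, the partner of Spc25, depended on the probe: its brightest probe changed by -0.22 in Ppp2r1b_R (adjusted p = 0.0919), while its other probe fell by 0.62 (adjusted p = 0.000681).

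Of the 7 kinesins, 1 passed in Chek1_R (30.9% of all probes) and 1 in Ctrl_R (7.55%). Kif15, which helps to hold spindle poles apart, fell in the arrays labelled Chek1_R from 10.49, 10.45 and 10.42 to 10.20, 10.24 and 10.10 (change -0.27, adjusted p = 0.000501). Kif18a, which limits microtubule length at kinetochores, stood in Bub1b_R at 8.76, 8.83 and 8.38 with Dox and 8.28, 8.32 and 8.31 without, and its change of -0.35 did not pass (adjusted p = 0.0722). Its change in Chek1_R was -0.36, with arrays at 9.67, 9.83 and 9.74 against 9.12, 9.66 and 9.38, and did not pass either (adjusted p = 0.0573). Kif18a was -0.24 in Ppm1g_R, -0.02 in Ppp2r1b_R and 0.25 in Ctrl_R. The single member to pass in Ctrl_R was Kif23, a cytokinesis motor, which rose from 10.33, 10.27 and 10.20 to 10.50, 10.73 and 10.51 (change 0.31, adjusted p = 0.0154).

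Among the 4 tested chromosome condensation genes, 1 passed the test in Ppm1g_R (23.4% of all probes), none was called, and none passed in another clone. Ncapd2, a condensin subunit, fell in Ppm1g_R from 10.93, 11.00 and 10.81 to 10.83, 10.55 and 10.66 (change -0.23, adjusted p = 0.0241), with the groups overlapping. Topoisomerase Top2a, which untangles sister chromatids, changed by -0.14 to 0.17 and passed in no clone. Smc2 was detected on 4 arrays of 30, and its changes of -0.02 to 0.17 each had an SE of 0.2.

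Among the anaphase and cytokinesis genes, separase (Espl1) fell in 3 rescue clones. Espl1 stood in Bub1b_R at 9.75, 9.76 and 9.83 with Dox and 9.43, 9.42 and 9.37 without, and fell by 0.38 (adjusted p = 0.00297). In Ppp2r1b_R it stood at 9.73, 9.68 and 9.73 against 9.31, 9.41 and 9.29, and fell by 0.38 (adjusted p = 0.0034). The fall in Ppm1g_R was 0.29 (adjusted p = 0.0234), from 9.59, 9.59 and 9.56 to 9.48, 9.12 and 9.28, and in these 3 clones the arrays with and without Dox did not overlap. In the arrays labelled Chek1_R they did (10.02, 9.73 and 9.96 against 9.76, 9.46 and 9.79), and the change of -0.23 did not pass (adjusted p = 0.0512). Espl1 in Ctrl_R changed by 0.02 (95% interval -0.17 to 0.20). The difference of its change from that in Ctrl_R did not pass the test in Ppm1g_R or Ppp2r1b_R. Nor did Espl1 pass the F-test of unequal change among the 5 clones (adjusted p = 0.085).

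Ube2c, the ubiquitin-conjugating enzyme of the anaphase-promoting complex, was the member with the widest spread among those seen on most arrays. In Ppp2r1b_R it stood at 6.97, 7.33 and 7.48 with Dox and 6.69, 6.64 and 7.10 without (change -0.45, adjusted p = 0.127). In Ctrl_R it stood at 5.92, 5.79 and 6.58 with Dox and 6.70, 6.71 and 6.68 without (change 0.60, adjusted p = 0.0823), with the groups apart. Without Ctrl_R +Dox replicate 3 the last value was 0.84 and was called (adjusted p = 0.0184). Pttg1, securin, was at 7.36, 7.24 and 7.49 in Ppm1g_R with Dox and 6.91, 7.10 and 7.21 without, also apart, and its change of -0.29 did not pass (adjusted p = 0.0723). Prc1, which bundles the central spindle, and Anln, a scaffold of the cleavage furrow, fell in the arrays labelled Chek1_R by 0.25 and 0.27 (adjusted p = 0.00414 and 0.00592). Anln rose in Ppp2r1b_R by 0.20, from 12.86, 12.83 and 12.88 to 13.13, 13.05 and 12.97 (adjusted p = 0.0478). In Ctrl_R, Ccna2 (cyclin A2) at 5.33, 5.67 and 5.93 with Dox and 5.90, 5.67 and 6.31 without overlapped, with a change of 0.31 (adjusted p = 0.42).

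**Figure D2:**
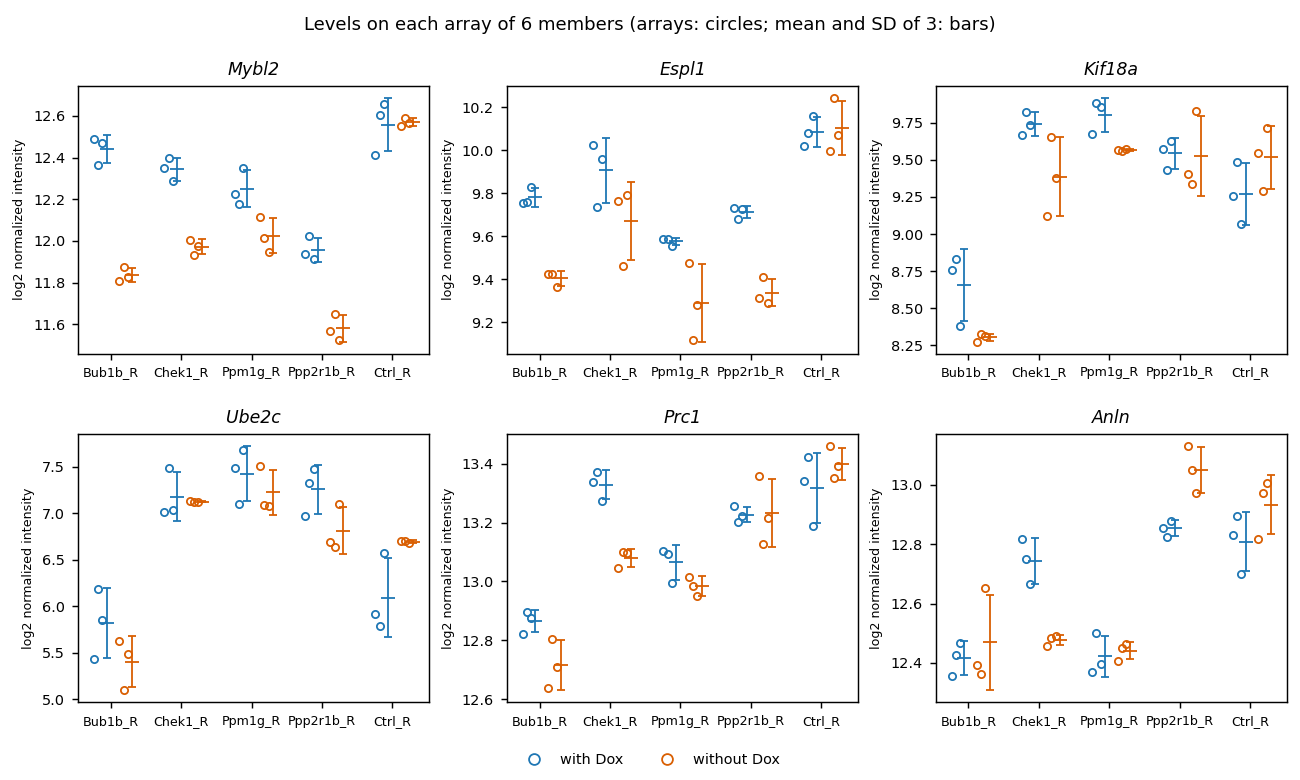
Log2 normalized intensity of 6 members on each of the 30 arrays, by clone, with Dox (blue) and without (orange); circles are arrays, bars the mean and SD of 3. Mybl2 without Dox lies below Mybl2 with Dox in the 4 rescue clones and not in Ctrl_R, and Espl1 does so without overlap in Bub1b_R, Ppm1g_R and Ppp2r1b_R.

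Fibroblast markers moved with the same contrast. The summed deposited signal of the 11 fibroblast markers with a row was 1610 to 1680 in Bub1b_R with Dox and 2620 to 3090 without, 1210 to 1440 and 2650 to 3690 in Chek1_R, 1810 to 2550 and 2360 to 2820 in Ppm1g_R, 1060 to 1340 and 1380 to 1840 in Ppp2r1b_R, and 821 to 1090 and 883 to 1160 in Ctrl_R. Of the 7 markers tested, 4 rose and 1 fell in Bub1b_R, 5 and 1 in Chek1_R, 5 and 1 in Ppm1g_R, 4 and 0 in Ppp2r1b_R, and 0 and 0 in Ctrl_R, where 11.6%, 14.5%, 11.6%, 12.4% and 4.07% of all probes rose. Among these markers Col1a2, Lum, Postn and S100a4 were detected on no array, Col3a1 on 8, Dcn on 12, and the others, Col1a1 included, on all. Vim had the highest levels of the 11 (8.89 to 11.18 on the log2 scale), so it weighs most in the summed signal. Of the 7 ESC markers, 4 fell in Bub1b_R, 3 in Chek1_R, 4 in Ppm1g_R, 6 in Ppp2r1b_R and 1 in Ctrl_R, and none rose. Of all probes 12.8%, 16.5%, 11.7%, 12.9% and 3.48% fell. The part of these shifts in the members' values was not tested, and in bulk samples fewer cells of a type and less RNA per cell cannot be told apart.

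The second question was whether the change in a rescue clone differed from that in Ctrl_R, which also lost Dox. It did for few members, and each called difference ran lower: Mybl2, Kif18a and Ube2c in Bub1b_R, Kif18a in the arrays labelled Chek1_R, and Ube2c in Ppp2r1b_R. In Bub1b_R 3 of 31 were called (5.15% of all probes), in Chek1_R 1 (8.99%), in Ppm1g_R 0 (5.27%) and in Ppp2r1b_R 1 (3.28%). Called lower were 2.45%, 4.62%, 2.54% and 1.57% of all probes. Without the fold limit 6, 6, 3 and 3 members passed (12.2%, 18.3%, 12% and 8.28% of all probes), all of them lower (6.32%, 9.8%, 6% and 4.52%). In Ppm1g_R 12 of the 31 members had an unadjusted p under 0.05 (25.4% of all probes). The median difference was -0.17, -0.14, -0.16 and -0.10, and 30, 24, 26 and 26 of the 31 members had a value below 0 (51.1%, 52.7%, 51.5% and 50.8% of all probes). These 4 differences share the 6 Ctrl_R arrays, in which 27 of the 31 members had a change above 0 on Dox withdrawal while 50% of all probes were below 0, so that they are not 4 separate observations.

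Mybl2 differed from Ctrl_R by -0.62 in Bub1b_R (95% interval -0.80 to -0.43, adjusted p = 6.92e-05), by -0.38 in Chek1_R (adjusted p = 0.0041), by -0.39 in Ppp2r1b_R (adjusted p = 0.00948) and by -0.24 in Ppm1g_R, which did not pass (adjusted p = 0.0947). Of the other Mybl2 probes, 1 gave -0.85 in Bub1b_R (adjusted p = 6.42e-06) and 1 gave -0.33 (adjusted p = 0.104). Without Ctrl_R +Dox replicate 1 the value of the brightest probe in Bub1b_R was -0.54, under 1.5-fold. Kif18a differed by -0.60 in Bub1b_R (adjusted p = 0.0498) and by -0.61 in Chek1_R (adjusted p = 0.0358). Of 11 alternatives in processing, a limit of 2-fold among them, 8 ended the first call and 5 the second. Adjusted p for the first was 0.0585 with the replicate number as a block and 0.0677 with a block within each clone. It was 0.0599 without background correction, 0.205 with arrays scaled to 1 median and 0.0713 without the detection filter. For the second it was 0.208 with arrays scaled to 1 median and 0.0543 without the detection filter. With only the arrays compared it was 0.08 and 0.0713. With 1 of the 12 arrays left out at a time, the first call was lost 9 times, held only without Bub1b_R +Dox replicate 3, Ctrl_R +Dox replicate 2 or Ctrl_R -Dox replicate 2, and ranged from -0.50 to -0.74. The second was lost 8 times, held only without Chek1_R +Dox replicate 1, Chek1_R -Dox replicate 2, Ctrl_R +Dox replicate 2 or Ctrl_R -Dox replicate 2, and ranged from -0.47 to -0.74. Ube2c differed by -1.02 in Bub1b_R (95% interval -1.63 to -0.41, adjusted p = 0.0245) and by -1.05 in Ppp2r1b_R (-1.66 to -0.44, adjusted p = 0.0291, and 0.0576 with a block within each clone). Beside them its value was -0.80 in Ppm1g_R (adjusted p = 0.0813) and -0.65 in Chek1_R (adjusted p = 0.138). The call in Bub1b_R was lost without Bub1b_R +Dox replicate 2 (-0.84), Bub1b_R -Dox replicate 2 (-0.87), Ctrl_R +Dox replicate 1 (-0.93) or Ctrl_R +Dox replicate 2 (-0.87). That in Ppp2r1b_R was lost 9 times, with values from -0.89 to -1.06, and held only without Ppp2r1b_R +Dox replicate 1, Ppp2r1b_R -Dox replicate 3 or Ctrl_R +Dox replicate 3. Ube2c in Ppm1g_R was called without Ppm1g_R +Dox replicate 2 (-0.96), Ppm1g_R -Dox replicate 1 (-0.94) or Ctrl_R +Dox replicate 3 (-1.04). The Ctrl_R change of 0.60 is part of each Ube2c difference. Ube2c also lay near the signal floor in Bub1b_R, with deposited signals of 8.7 to 42.8 and detection on 2 of 3 arrays in each medium. Over 11 alternatives in processing its difference in Bub1b_R ran from -0.67 to -1.58.

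**Figure D3:**
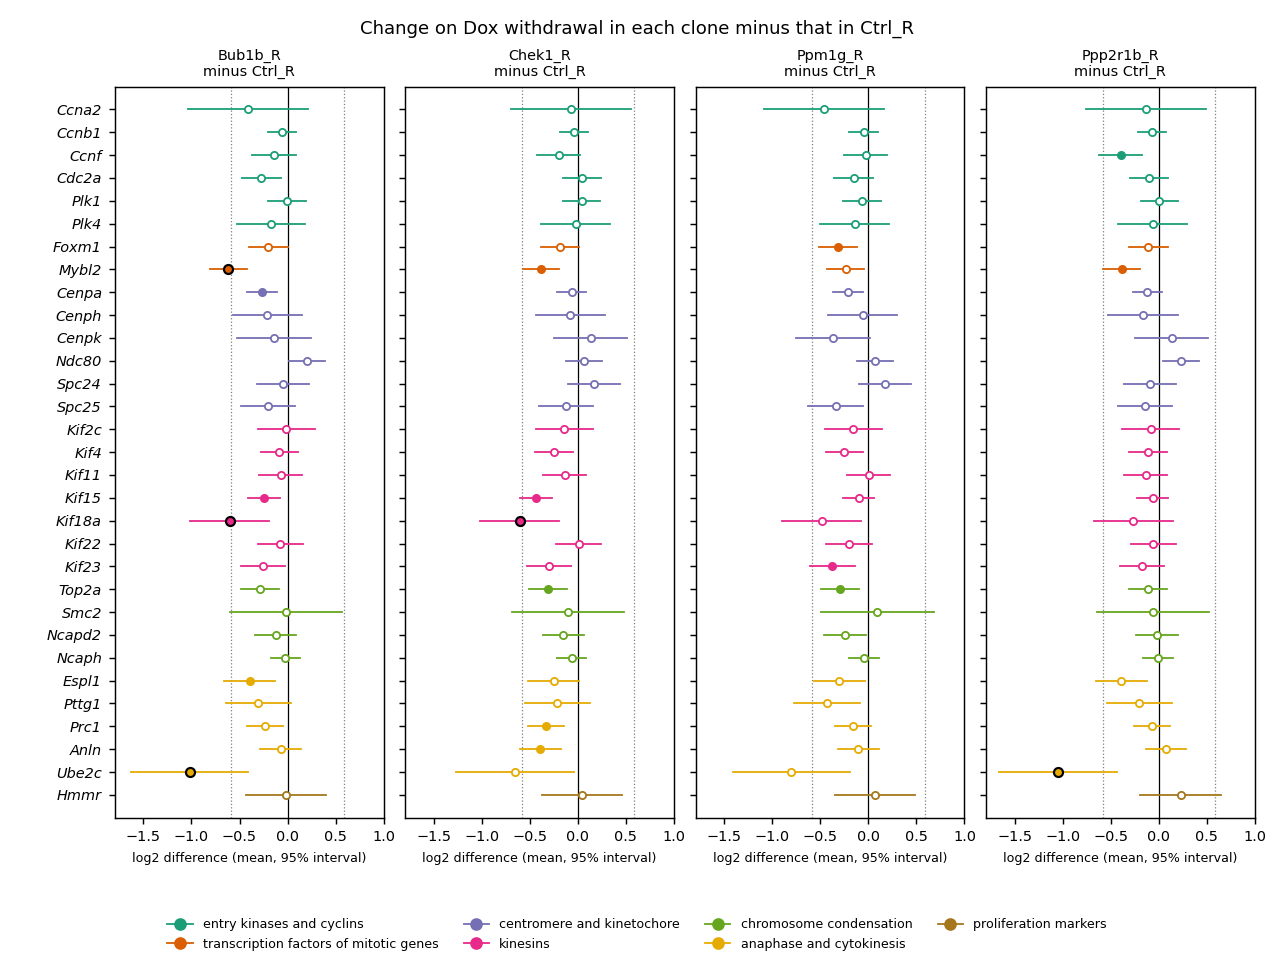
Change on Dox withdrawal in each rescue clone minus the change in Ctrl_R (log2 difference, 95% interval) for the 31 tested members; filled points passed an adjusted p under 0.05 and black rings mark the 5 called differences. Most points lie left of 0 and inside the dotted lines at 1.5-fold, and the called ones are Mybl2, Kif18a and Ube2c.

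A single test over all 5 clones, of whether a member's change on Dox withdrawal was the same in each, was passed by 8 of 31 members, where 30.6% of all probes passed. They were Mybl2 (adjusted p = 0.000263), Kif15 (0.000921), Anln (0.0097), Cenpa (0.0341), Ccnf (0.0365), Top2a (0.0372), Ube2c (0.0398) and Prc1 (0.0419). Kif15 changed by -0.27 in Chek1_R beside -0.08 in Bub1b_R, 0.07 in Ppm1g_R, 0.10 in Ppp2r1b_R and 0.17 in Ctrl_R. Anln was -0.27 in Chek1_R and 0.20 in Ppp2r1b_R.

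The third question was how each rescue clone compared with the control clone, both without Dox. Here the members differed far more than on Dox withdrawal, as did the rest of the array. In Bub1b_R 20 of 31 members passed the test against Ctrl_R (52.9% of all probes) and all 20 were lower (27%). Of these, 7 were called (22.6% of all probes, 11.7% lower), so that the share called in either direction was at the background. The median difference was -0.32, against -0.01 over all probes. The arrays of both clones had low signal floors, but those of Ctrl_R are of the earlier deposit, so that clone and deposit cannot be told apart here either. The same clones with Dox present differed in part alike: 14 members passed (39.9%), 13 lower (19.9%) and 1 higher (20%; Foxm1, 0.18), and 2 were called, both lower (12.7%, 6.09% lower), with a median of -0.12. Pttg1, Kif18a, Prc1 and Spc25 were thus among the members lower in Bub1b_R in both media.

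Pttg1, securin, stood at 7.09, 7.20 and 6.89 in Bub1b_R without Dox and at 8.12, 8.27 and 8.18 in Ctrl_R. The difference was -1.13 (SE 0.116, adjusted p = 1.22e-08). With Dox it stood at 7.22, 7.26 and 7.19 against 8.09, 7.96 and 8.10 (-0.83, adjusted p = 3.33e-06). The arrays of the clones did not overlap in either medium. Kif18a was at 8.28, 8.32 and 8.31 against 9.55, 9.29 and 9.71 without Dox (-1.21, adjusted p = 9.63e-08), and at 8.76, 8.83 and 8.38 against 9.25, 9.48 and 9.07 with it (-0.61, adjusted p = 0.00112). The second of these was under 1.5-fold without Bub1b_R +Dox replicate 3 (-0.47) or Ctrl_R +Dox replicate 2 (-0.50). Ube2c was at 5.63, 5.10 and 5.48 against 6.70, 6.71 and 6.68 without Dox (-1.29, adjusted p = 1.32e-05), and detected on 2 of the 3 Bub1b_R arrays. Over the alternatives in processing this Ube2c value ran from -0.85 to -1.98.

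The other called members of Bub1b_R without Dox were Mybl2 (-0.73), Spc25 (-0.73), Espl1 (-0.70) and Prc1 (-0.68). Spc25 stood at 10.19, 10.04 and 9.87 against 10.85, 10.69 and 10.74, and its second probe was called too (-0.86). Prc1 stood at 12.64, 12.81 and 12.71 against 13.46, 13.35 and 13.39. The arrays of the 2 clones did not overlap for 20 of the 31 members, near the 60.3% of all probes. With arrays scaled to 1 median, a scaling that moved the median of all probes in this contrast by 0.11, 3 members were called, all lower, and Mybl2, Spc25, Espl1 and Prc1 were between -0.49 and -0.53.

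**Figure D4:**
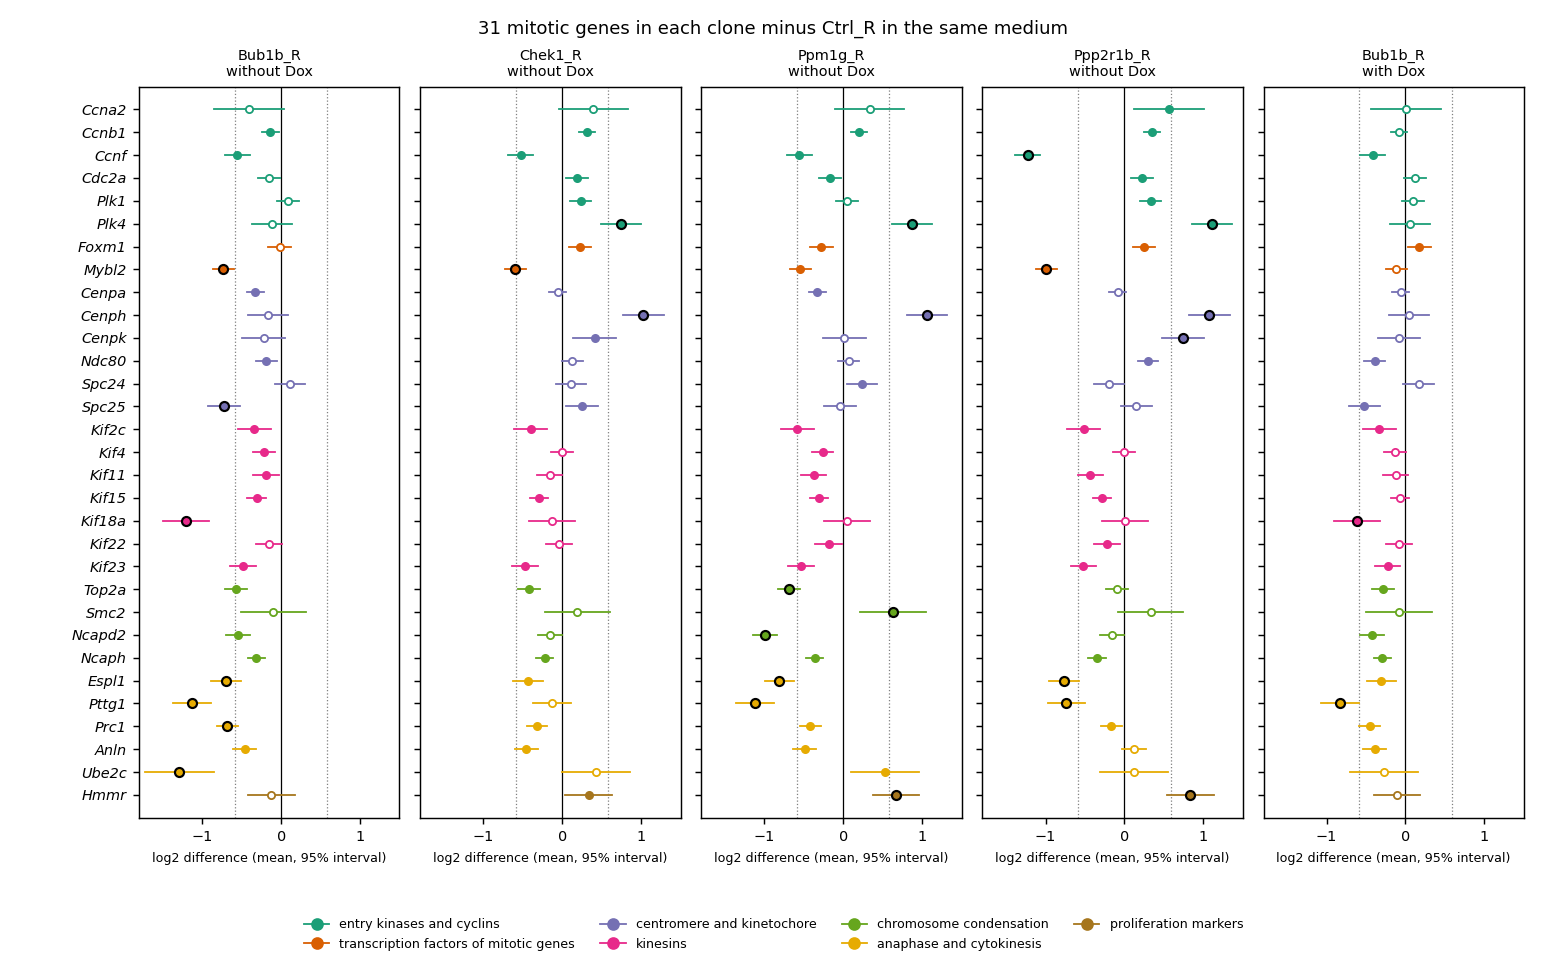
Difference of each rescue clone from Ctrl_R in the same medium (log2, 95% interval) for the 31 tested members: 4 panels without Dox and, at right, Bub1b_R with Dox. Filled points passed an adjusted p under 0.05, black rings mark called members; Bub1b_R lies left of 0 for most members in both media, and Cenph and Plk4 lie near 1 in the other 3 clones.

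Chek1_R, Ppm1g_R and Ppp2r1b_R were read on arrays with a higher signal floor than Ctrl_R, and the clone and this set of arrays cannot be told apart. Against Ctrl_R without Dox, 3 members were called in Chek1_R (28.8% of all probes), 8 in Ppm1g_R (33.5%) and 8 in Ppp2r1b_R (33.7%). Without the fold limit 19 (60.6%), 25 (64.8%) and 21 (65.4%) passed. Their directions were mixed, with 9 higher and 10 lower in Chek1_R (28.9% and 31.7% of all probes), 7 and 18 in Ppm1g_R (30.8% and 34%), and 10 and 11 in Ppp2r1b_R (29.5% and 35.9%). The called members split as 2 higher and 1 lower (14.1% and 14.6% of all probes), 4 and 4 (16.7% and 16.8%), and 4 and 4 (16.6% and 17.1%). With arrays scaled to 1 median the splits were 2 higher and 0 lower, 3 and 9, and 3 and 10, and in Ppp2r1b_R that scaling moved the median of all probes by -0.14.

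Cenph, an inner kinetochore protein, and Plk4, the centriole kinase, were higher in all 3 of these clones. Cenph stood at 8.34, 8.13 and 8.23 in Ctrl_R without Dox, and at 9.09, 9.50 and 9.20 in Chek1_R, 9.27, 9.39 and 9.23 in Ppm1g_R, and 9.33, 9.30 and 9.30 in Ppp2r1b_R. The differences were 1.03, 1.06 and 1.08 (adjusted p from 5.41e-08 to 1.46e-07), while Bub1b_R, at 8.01, 8.13 and 8.05, differed by -0.17. Plk4 stood at 8.47, 8.29 and 8.33 in Ctrl_R, and its differences were 0.74, 0.87 and 1.11 in Chek1_R, Ppm1g_R and Ppp2r1b_R, beside -0.12 in Bub1b_R. Over both media Cenph lay between 7.79 and 8.37 on the 12 Ctrl_R and Bub1b_R arrays, and between 9.06 and 9.50 on the 18 others, and Plk4 between 7.89 and 8.47 and between 8.80 and 9.71. Cenpk, a partner of Cenph, passed in Chek1_R (0.41, adjusted p = 0.0094) and was called in Ppp2r1b_R, at 9.94, 9.65 and 10.05 against 9.18, 9.01 and 9.22 (0.74, adjusted p = 2.66e-05). Hmmr and Smc2 were detected on no Ctrl_R array without Dox, so only a bound holds: Hmmr was at least 1.16-fold higher in Ppm1g_R (detected on 1 of 3 arrays) and at least 1.3-fold higher in Ppp2r1b_R (2 of 3), and Smc2 at least 1.17-fold higher in Ppm1g_R (1 of 3). As fitted, Hmmr in Ppm1g_R was under 1.5-fold without Ppm1g_R -Dox replicate 3 (0.51) or Ctrl_R -Dox replicate 1 (0.56), and Smc2 without the latter (0.53).

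Other members were lower than in Ctrl_R. In Ppp2r1b_R, Ccnf stood at 7.57, 7.43 and 7.36 against 8.69, 8.75 and 8.60 in Ctrl_R (-1.23, adjusted p = 1.5e-12), with no overlap. Its differences in Bub1b_R, Chek1_R and Ppm1g_R were -0.55, -0.53 and -0.56. Mybl2 differed from Ctrl_R by -0.99 in Ppp2r1b_R (adjusted p = 3.21e-12), by -0.60 in Chek1_R (-0.58 without Chek1_R -Dox replicate 2) and by -0.55 in Ppm1g_R. In Chek1_R the mean of all tested Mybl2 probes gave -0.42, and arrays scaled to 1 median gave -0.56, both under 1.5-fold. Condensin Ncapd2 stood in Ppm1g_R at 10.83, 10.55 and 10.66 against 11.66, 11.66 and 11.70 in Ctrl_R (-0.996, adjusted p = 3.4e-11), and both other probes of the gene were lower too (-0.89 and -0.66). That difference was -0.16 in Chek1_R and -0.15 in Ppp2r1b_R, clones read on the same set of arrays as Ppm1g_R. Top2a in Ppm1g_R stood at 11.49, 11.42 and 11.48 against 12.05, 12.21 and 12.20 (-0.69, adjusted p = 4.34e-09).

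The separase pair was low in several clones. Pttg1 stood at 6.91, 7.10 and 7.21 in Ppm1g_R and 7.49, 7.33 and 7.54 in Ppp2r1b_R, against 8.12, 8.27 and 8.18 in Ctrl_R (-1.12 and -0.74), and at 8.22, 8.03 and 7.93 in Chek1_R (-0.13, adjusted p = 0.346). Espl1 differed by -0.81 in Ppm1g_R, -0.77 in Ppp2r1b_R, -0.70 in Bub1b_R and -0.43 in Chek1_R, and each passed the test. The kinesins Kif2c, Kif15 and Kif23 were lower than in Ctrl_R in all 4 clones, by -0.29 to -0.58, and each passed in each clone. Cyclin B1 was higher in Chek1_R (0.31), Ppm1g_R (0.20) and Ppp2r1b_R (0.35) and lower in Bub1b_R (-0.14).

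**Figure D5:**
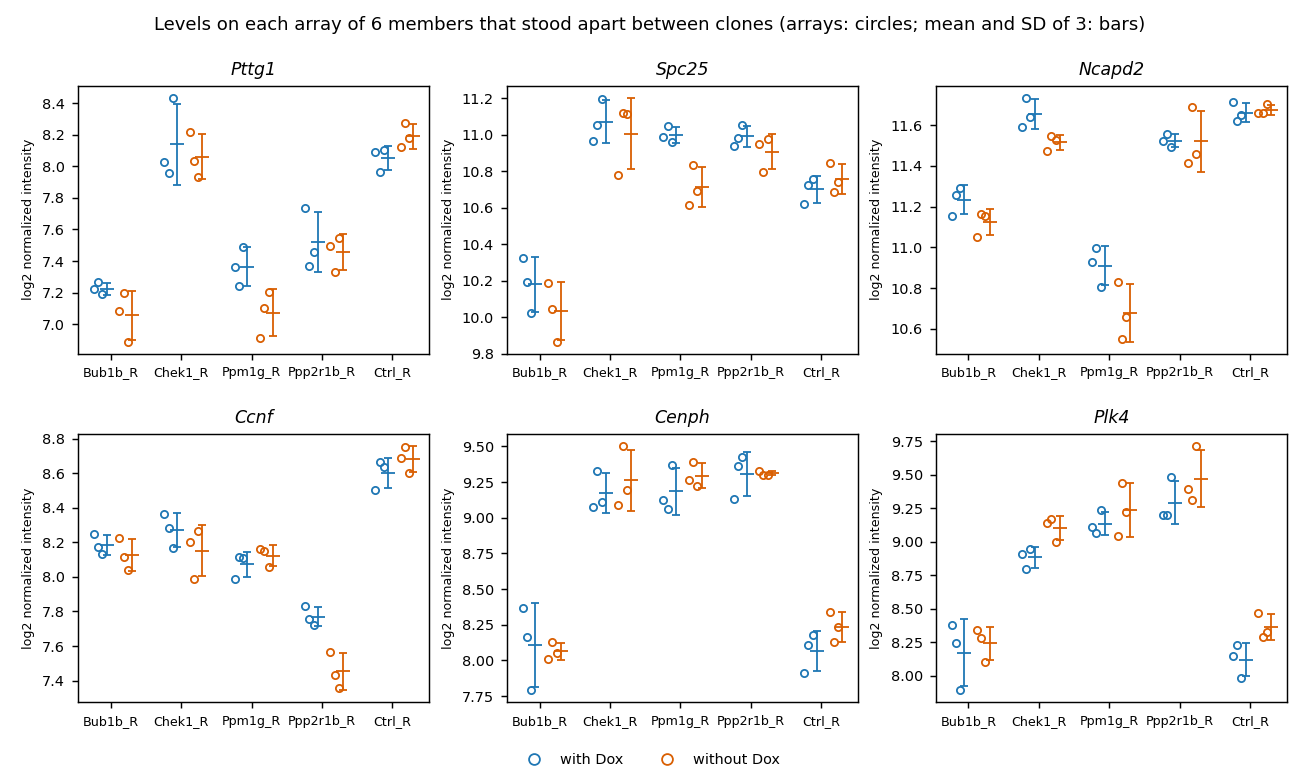
Log2 normalized intensity of Pttg1, Spc25, Ncapd2, Ccnf, Cenph and Plk4 on each of the 30 arrays, by clone, with Dox (blue) and without (orange); circles are arrays, bars the mean and SD of 3. For these 6 members the clones lie farther apart than the media: Ncapd2 is lowest in Ppm1g_R, Ccnf in Ppp2r1b_R, Spc25 in Bub1b_R, and Cenph and Plk4 are low in Bub1b_R and Ctrl_R.

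Genes next to the members in the cell cycle were counted from written lists. Of 49 other mitotic genes, 42 had a row and 38 were tested. On Dox withdrawal 1 was called in Bub1b_R, Chek1_R and Ppp2r1b_R each and 0 in Ppm1g_R and Ctrl_R, and each time it was Cenpm, a centromere protein (-0.62, -0.67 and -0.59, beside -0.12 in Ppm1g_R and -0.29 in Ctrl_R). One call is 2.63% of the list, where 5.6%, 9.27% and 4.82% of all probes were called in Bub1b_R, Chek1_R and Ppp2r1b_R. In Ppm1g_R and Ctrl_R 4.37% and 1.1% of all probes were called. Cep55, a protein of abscission, fell in Bub1b_R by 0.45, and Zwilch, of the kinetochore's outer layer, fell in Bub1b_R by 0.42 and in Chek1_R by 0.32. At an adjusted p under 0.05 alone, 2 rose and 7 fell in Bub1b_R, 1 and 10 in Chek1_R, 2 and 6 in Ppm1g_R, 2 and 4 in Ppp2r1b_R, and 1 and 1 in Ctrl_R. Of all probes 11.6%, 14.5%, 11.6%, 12.4% and 4.07% rose, and 12.8%, 16.5%, 11.7%, 12.9% and 3.48% fell. In all 23.7%, 28.9%, 21.1%, 15.8% and 5.26% of the list passed, each below the share of all probes (24.4%, 30.9%, 23.4%, 25.3% and 7.55%). The list's median change was -0.08, -0.03, -0.05, -0.02 and 0.07 in Bub1b_R, Chek1_R, Ppm1g_R, Ppp2r1b_R and Ctrl_R.

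Among 18 tested genes of G1 and S phase, the 1 called in each clone was Ccne2, cyclin E2, which rose by 1.08 in Bub1b_R, 0.86 in Chek1_R, 0.67 in Ppm1g_R, 0.69 in Ppp2r1b_R and 0.65 in Ctrl_R, the control clone included. That is 5.56% of the list, where 5.6%, 9.27%, 4.37%, 4.82% and 1.1% of all probes were called in the same order. E2f1, the S phase transcription factor, fell by 0.41, 0.26, 0.26 and 0.31 in the 4 rescue clones and changed by -0.17 in Ctrl_R (adjusted p = 0.0737). Cdt1, a licensing factor, fell by 0.38, 0.19, 0.33 and 0.19 beside -0.13 in Ctrl_R. For neither gene did the difference from Ctrl_R pass the test in Bub1b_R, the clone with the largest fall of each. Of the 18, the test alone was passed by 1 higher and 2 lower in Bub1b_R, 2 and 2 in Chek1_R, 3 and 4 in Ppm1g_R, 2 and 7 in Ppp2r1b_R, and 3 and 0 in Ctrl_R. In all 16.7%, 22.2%, 38.9%, 50% and 16.7% of the list passed, against 24.4%, 30.9%, 23.4%, 25.3% and 7.55% of all probes. Of all probes 11.6%, 14.5%, 11.6%, 12.4% and 4.07% rose, and 12.8%, 16.5%, 11.7%, 12.9% and 3.48% fell. Of 12 tested p53 targets, 1 was called in each rescue clone. That is 8.33% of the list, against 5.6%, 9.27%, 4.37% and 4.82% of all probes in Bub1b_R, Chek1_R, Ppm1g_R and Ppp2r1b_R. Gdf15, a stress cytokine, fell by 0.80 in Bub1b_R, 1.44 in Chek1_R and 0.69 in Ppm1g_R. It fell by 0.58 in Ppp2r1b_R, where it was not called, and changed by -0.24 in Ctrl_R (adjusted p = 0.358). The difference of its change from that in Ctrl_R did not pass the test in Bub1b_R, Ppm1g_R or Ppp2r1b_R. Sesn2, a stress-induced gene, fell by 0.63 in Ppp2r1b_R and by 0.52 in Ctrl_R, and changed by -0.11 in Bub1b_R, -0.11 in Chek1_R and 0.26 in Ppm1g_R. Bbc3, the apoptosis gene Puma, fell by 0.23 in Bub1b_R and 0.40 in Chek1_R. Without the fold limit 0 rose and 2 fell in Bub1b_R, 1 and 5 in Chek1_R, 2 and 1 in Ppm1g_R, 1 and 2 in Ppp2r1b_R, and 0 and 1 in Ctrl_R. In all 16.7%, 50%, 25%, 25% and 8.33% of the list passed, against 24.4%, 30.9%, 23.4%, 25.3% and 7.55% of all probes.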

How the data were processed

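RNA of 30 arrays (5 clones, with and without Dox, 3 arrays each) was hybridised to Illumina mouse bead arrays. The deposited values are bead intensity signals per probe, with the array background subtracted and no normalization between arrays, and the deposited detection p-value of each probe on each array. The submitters' processing notes name lumi, whose role and version are not given in the sources used here, as is the genome build. Some detection p-values had been turned into dates by a spreadsheet, 46 on the array of Ppm1g_R -Dox replicate 2 and 14 on that of Bub1b_R -Dox replicate 2. Of these, 28 and 6 carried a time of day and were turned back into the fraction it stands for. The other 18 and 8 were given the detection p-value of the probe nearest in signal on the same array. No array was a copy of another, and arrays were grouped by their labels.

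From these signals, the background was corrected by normexp with parameters from the detection p-values (offset 16), arrays were brought to the same quantiles, and log2 was taken (limma 3.58.1, R 4.3.3). The filter kept the 15151 of 25697 probes (11177 symbols) that were detected, at p under 0.05, on 3 arrays or more. One limma fit of 10 condition means with moderated variances gave each change, the change minus that in Ctrl_R, the F-test over clones and the clone differences, with Benjamini-Hochberg adjustment over all probes kept. The fit was also run on simulated data with added changes larger than any member's change on Dox withdrawal. That run does not measure recovery at the members' sizes. The brightest probe stood for a gene. Named were members called changed (at most 6 each way), otherwise the 3 of largest change, and from other lists the 3 of largest change in the mean of the 4 clones. Motif letters were searched in RefSeq windows, and hairpin sequences come from the study's supplementary table. The number of arrays limits the precision.

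The members and lists were chosen with earlier results of these data known. Alternatives covered background correction, scaling, offset, detection filter, fold limit, probes of a gene, arrays in the fit, replicate blocks, the methods' t-test and leaving out each array.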

Additional observations from a re-analysis of the deposited data

Results flagged for a closer look

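In 5 cases the change of a member on Dox withdrawal differed between a rescue clone and Ctrl_R by a test of the difference itself, over all probes, at 1.5-fold or more. In Bub1b_R these were Mybl2 (-0.62, adjusted p = 6.92e-05), Kif18a (-0.60, adjusted p = 0.0498, and 0.0585 with the replicate number as a block) and Ube2c (-1.02, adjusted p = 0.0245). In Chek1_R it was Kif18a (-0.61, adjusted p = 0.0358), and in Ppp2r1b_R Ube2c (-1.05, adjusted p = 0.0291). Of 11 alternatives in processing, 8 ended the Kif18a call in Bub1b_R, 5 that in Chek1_R and 4 the Ube2c call in Ppp2r1b_R. In Bub1b_R, 2 ended the Mybl2 call and 1 the Ube2c call. All 5 differences use the same 6 Ctrl_R arrays. With 3 arrays a condition, no group was large enough to look for single outlying arrays.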

How the results depend on the processing

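No value of a member changed sign while called, under any alternative run. Counts of members called moved as follows. Without the fold limit they were 3 in Bub1b_R, 5 in Chek1_R, 4 in Ppm1g_R, 5 in Ppp2r1b_R and 1 in Ctrl_R on Dox withdrawal, 13 for the average of the rescue clones, 6, 6, 3 and 3 for the difference from Ctrl_R (in the same clone order), 20, 19, 25 and 21 against Ctrl_R without Dox, and 14 for Bub1b_R with Dox. With a limit of 2-fold, 0 were called on withdrawal in Bub1b_R, 1 and 0 for the difference from Ctrl_R in Bub1b_R and Chek1_R, 3, 1, 2 and 3 against Ctrl_R without Dox, and 0 for Bub1b_R with Dox. With arrays scaled to 1 median, the count was 0 on withdrawal in Bub1b_R, 1, 0 and 0 for the difference in Bub1b_R, Chek1_R and Ppp2r1b_R, 3 and 13 without Dox in Bub1b_R and Ppp2r1b_R, 1 for Bub1b_R with Dox and 2 among the 5 clones. That scaling moved the median of all probes by 0.11 in Bub1b_R and by -0.14 in Ppp2r1b_R without Dox. Without background correction 0 were called for the difference in Ppp2r1b_R. With an offset of 50, 0 were called for the difference in Chek1_R and 1 for Bub1b_R with Dox. Without the detection filter, which tested all 35 members, 0 were called for the difference in Chek1_R and 4 among the 5 clones. With only the arrays compared, the difference was called for 1, 0 and 0 members in Bub1b_R, Chek1_R and Ppp2r1b_R. The methods' t-test called 1 member for Bub1b_R with Dox.

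The replicate numbers did not pair the arrays: deviations of the arrays with 1 number in a clone correlated at -0.0835 to 0.131, over 0.1 in 1 of 15 pairs. A replicate block over all clones left every count of called members within 1.5 times (Mybl2 in Bub1b_R -0.60) but ended the Kif18a call for the difference in Bub1b_R (adjusted p = 0.0585). A replicate block within each clone ended the same call (adjusted p = 0.0677) and that of Ube2c for the difference in Ppp2r1b_R (adjusted p = 0.0576, 0 called there), and changed no other count by as much.

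Leaving out each array in turn gave 0 to 1 members on withdrawal in Bub1b_R (0 without Bub1b_R +Dox replicate 1) and 0 to 1 in Ctrl_R (1 without Ctrl_R +Dox replicate 3). The difference from Ctrl_R gave 0 to 3 in Bub1b_R (0 without Ctrl_R +Dox replicate 1), 0 to 1 in Chek1_R, 0 to 1 in Ppm1g_R and 0 to 1 in Ppp2r1b_R, where the arrays that decided single calls are named beside them. Counts against Ctrl_R were 7 to 9 in Bub1b_R, 2 to 4 in Chek1_R, 7 to 10 in Ppm1g_R and 8 to 9 in Ppp2r1b_R without Dox, and 1 to 3 for Bub1b_R with Dox (1 without Bub1b_R +Dox replicate 3 or Ctrl_R +Dox replicate 2). Among the 5 clones 4 to 9 were called, with 4 without Ppm1g_R +Dox replicate 1, Ctrl_R +Dox replicate 1, Ctrl_R -Dox replicate 1 or Ctrl_R -Dox replicate 3, and 5 without Chek1_R -Dox replicate 1, Ppp2r1b_R +Dox replicate 2 or Bub1b_R -Dox replicate 2. The causes were not tested. Signal limits Smc2 and Hmmr, detected on 4 arrays, and the 4 members detected on none, and the lowest detected signal differed between the sets of arrays. It also limits Ube2c, detected on 28 arrays and near the floor in Bub1b_R.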
